A study of Mus musculus with 5 samples.

Results

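The heat shock proteins and DnaJ co-chaperones are the main ATP-driven protein folding system of the cell. They were taken here by gene symbol alone, as every Hspa, Hspb, Hspd, Hspe, Hsph, Hsp90, Dnaja, Dnajb and Dnajc gene of the deposited table together with the regulators Hsf1, Hsf2 and Bag3. Pseudogenes were left out, and no expression value entered the choice. This gave 75 of the 38463 gene symbols, on 76 lines of the table, since Hspa14 stood on 2 lines that were summed. There were 14 genes of the HSP70 and HSP110 family, 3 HSP90 genes, 8 small heat shock protein genes, the HSP60 and HSP10 pair (2 genes), 4 DnaJ A, 13 DnaJ B and 28 DnaJ C genes, and 3 regulators.

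RNA came from peritoneal macrophages, the resident phagocytes of the mouse abdominal cavity, kept in F12 DMEM medium with 10% FBS, and no stimulus or heat treatment is named in the labels. The tested mice were Nrp1-/- (strain LysMCre-Nrp1fl/fl, 2 libraries, called knockout), where lysozyme M-driven Cre deletes the floxed gene in the myeloid lineage and other cells of the peritoneum keep it. They were set against mice of genotype Wildtype (strain given as C7/BL6, 3 libraries, called wild-type), and age and sex are not given in the sources used here. Neuropilin 1, the product of Nrp1, is a membrane co-receptor that binds class 3 semaphorins and VEGF.

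HSP70 proteins bind exposed hydrophobic stretches of unfolded clients in a cycle of ATP hydrolysis. J-domain proteins of the DnaJ A, B and C classes deliver clients and start that hydrolysis, and HSP110 proteins act as nucleotide exchange factors. HSP90 takes over late folding steps of kinases and receptors, small heat shock proteins hold unfolded clients without ATP, and HSP60 with HSP10 forms the folding chamber of the mitochondrial matrix. Under proteotoxic stress the transcription factor HSF1 binds heat shock elements and induces the cytosolic set. The endoplasmic reticulum has a set of its own, induced through the unfolded protein response by way of endoplasmic reticulum stress elements.

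Levels are given in FPKM, read fragments scaled to transcript length and to the mapped total of the library. The sums per library were 539101 to 629135 FPKM, and 11014 to 12020 genes reached 1 FPKM. Wild-type 3 had both the highest sum and the fewest such genes, and its correlation with the other libraries across tested genes (Pearson's r of 0.929 to 0.938) was below that of the rest (up to 0.972). The depth in reads is unknown. Macrophage markers differed widely in level. Averaged over the 5 libraries, Cd68 (1373 FPKM), Csf1r (895 FPKM), Itgam (305 FPKM) and Emr1 (203 FPKM) were high. Mertk (24.1 FPKM), Icam2 (13.9 FPKM), Gata6 (8.76 FPKM) and Timd4 (5.54 FPKM) were much lower. Csf1r, the receptor for macrophage colony-stimulating factor, stood at 943 and 793 FPKM in the knockout libraries and at 765, 864 and 1108 in wild-type. Nrp1 itself was lower in both knockout libraries, at 7.63 and 7.70 FPKM, against 24.3, 19.0 and 11.5 FPKM in wild-type. Its log2 fold change was -1.09 ± 0.32 (SE) and did not pass the test (limma adjusted p = 0.927). With limma array weights, an alternative that gives deviant libraries less weight, it was -1.43 and passed (adjusted p = 0.0234). Which exons the deletion takes out is not stated in the labels. Lyz2, which carries the Cre driver, had 53.0 and 64.3 FPKM in the knockout libraries and was listed at 0 in all 3 wild-type libraries (limma adjusted p = 0.000418). A listed 0 can be a failed estimate in such a table.

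A few chaperone transcripts were abundant in both groups and carried most of the members' summed level. The members made up 0.529% and 0.442% of all FPKM in knockout 1 and 2, against 0.489%, 0.564% and 0.484% in wild-type 1, 2 and 3. Of the 75 members, 5 averaged at least 100 FPKM over the 5 libraries, 28 averaged 10 to under 100, 27 averaged 1 to under 10, and 15 averaged under 1 FPKM. The 5 leading genes were Hspa8, Hsp90ab1, Hspa5, Hsp90b1 and Hsp90aa1. They carried 71.5% and 66.5% of the members' summed FPKM in the knockout libraries and 69.2%, 72.6% and 75.9% in wild-type. At the other end Dnajb8, Dnajc5b, Dnajc5g and Hspb3 were listed at 0 in every library. Dnajb8 and Dnajc5b are known from testis, and Hspb3 from muscle.

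**Figure D1:**
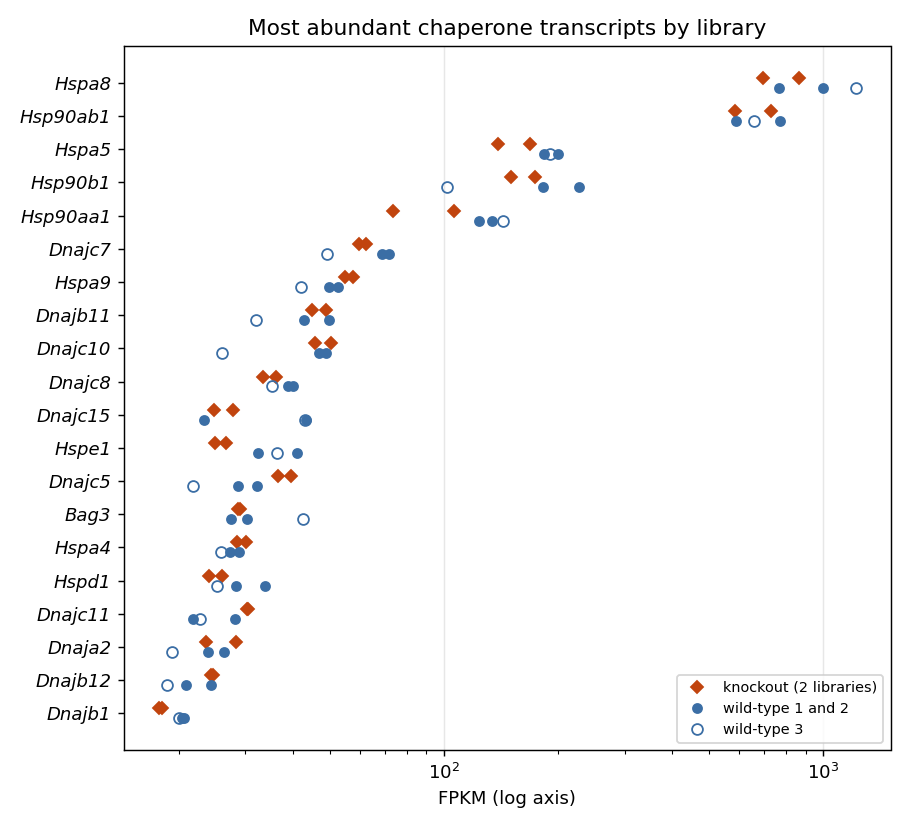
FPKM of the 20 members with the highest mean level, on a log axis, 1 line per gene, with knockout libraries as diamonds and wild-type libraries as circles (wild-type 3 open). Hspa8 and Hsp90ab1 lie far to the right of the rest, the knockout libraries of Hsp90aa1 (106 and 73.6 FPKM) lie left of all 3 wild-type libraries, and wild-type 3 often stands apart from wild-type 1 and 2.

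A gene was tested when it reached 1 FPKM in at least 2 libraries, which 61 members did; the other 14 stay with their levels. Hspb7 was the 1 member that passed this filter through a single group, with 0 knockout and 2 wild-type libraries at 1 FPKM or more, so that the filter favoured its lower knockout mean. No member passed the limma test at an adjusted p under 0.05, in either direction. Across all 12214 genes tested, 5 were higher (0.0409%) and 2 lower (0.0164%) in the knockout, so at most a small fraction of 1 member would be called at that rate. The lowest adjusted p of a member was 0.927. At an unadjusted p under 0.05, 0 members were on the higher side, where 1.19% of all genes stood, and 2 members, Hspb1 and Hsp90aa1, were on the lower side (3.28% of members), where 0.63% of all genes stood. The log2 fold changes of the members ran from -0.90 for Hspb1 to 0.55 for Dnajc13, with 31 positive and 30 negative. That is 50.8% positive, against 63.9% of all tested genes (7809 positive and 4405 negative), and without wild-type 3 the shares were 41.7% of members and 53.4% of all genes. All fold changes were taken on log2(FPKM + 1), where those of weakly expressed genes are understated. Whether libraries of 1 genotype are separate animals is not stated, so the p-values reflect the spread of these 5 samples, which may be technical.

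The knockout and wild-type libraries did not overlap for 20 members. In 11 members both knockout libraries lay above all wild-type libraries (18.0% of members, against 13.9% of all tested genes). In 9 members both lay below (14.8%, against 6.95% of all tested genes). The 11 were Hspa2, Hspa9, Hspa12a, Hspb6, Dnajb6, Dnajb12, Dnajb14, Dnajc5, Dnajc11, Dnajc13 and Dnajc18. The 9 were Hsp90aa1, Hspa5, Hspb1, Hspe1, Dnajb1, Dnajc2, Dnajc4, Dnajc9 and Dnajc25. Hspa2, Hspb6, Dnajb6, Dnajb12, Dnajb14, Dnajc2, Dnajc4, Dnajc9 and Dnajc18 fall outside the rule for named members and were picked with their values in view. The median log2 fold change of the members was 0.01, that of all tested genes was 0.11, and the difference was -0.10, or -0.06 without wild-type 3.

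**Figure D2:**
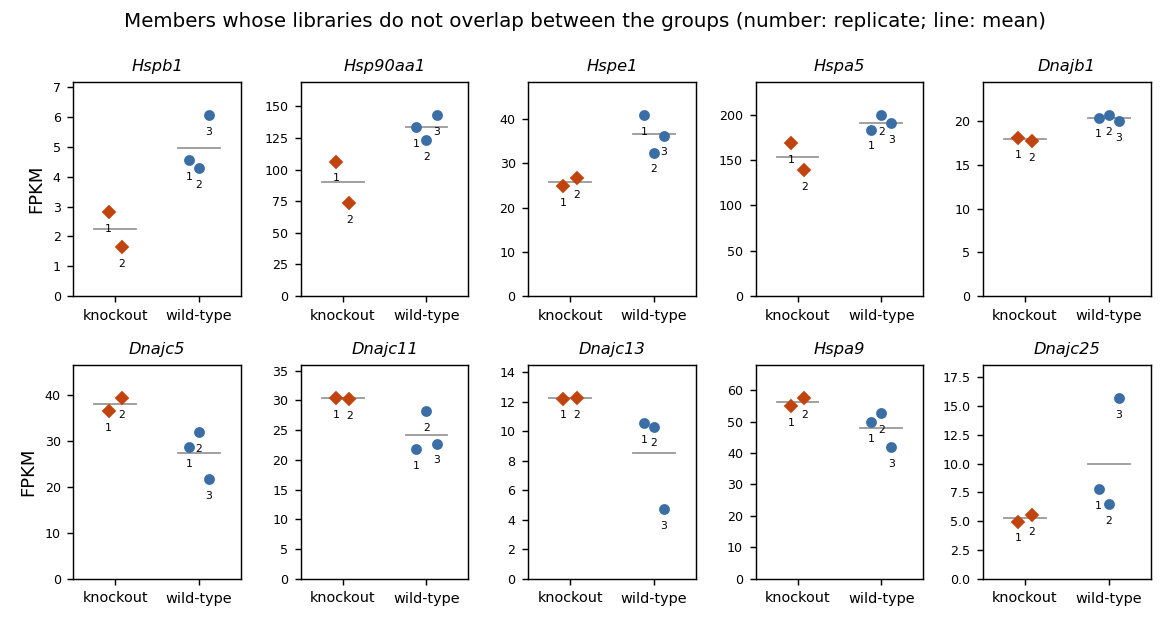
FPKM per library of 10 members whose groups do not overlap, picked by hand, on axes that start at 0. Knockout libraries stand left of wild-type libraries, with replicate numbers beside the points and the group mean as a line. Over all members 11 were apart on the higher and 9 on the lower side, and Hspa12a, also named and higher, is not shown. Hspb1, Hsp90aa1, Hspe1, Hspa5 and Dnajb1 (top) and Dnajc25 lie lower in the knockout libraries, while Dnajc5, Dnajc11, Dnajc13 and Hspa9 lie higher, with wild-type 3 setting much of the gap for Dnajc13 (4.72 FPKM) and Dnajc25 (15.7 FPKM).

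In the list of cytosolic and nuclear chaperones most fold changes were negative, with no member past the test. It holds stress-inducible genes together with the constitutive Hspa8. Of 13 genes in this list 11 were tested, 3 with a positive and 8 with a negative fold change, where 63.9% of all tested genes were positive. Groups did not overlap for 3 of the 11 (Hspb1, Hsp90aa1 and Dnajb1), all lower. Across all tested genes 6.95% were apart on that side and 13.9% on the higher side. The median of the 11 was -0.28 relative to all tested genes and -0.21 without wild-type 3. It was -0.30 under median-of-ratios scaling and -0.27 with libraries rescaled to equal sums. The summed level of the list was 1069 and 864 FPKM in the knockout libraries and 1008, 1236 and 1469 FPKM in wild-type, and most of that sum is Hspa8. Without Hspa8, a trimming made with the values in view, 3 fold changes were positive and 7 negative, and the sum was 207 and 168 FPKM in the knockout libraries and 241, 237 and 250 FPKM in wild-type, with Hsp90aa1 as its largest part.

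Hspb1 had the most negative fold change of all members. It encodes HSP27 (HSP25 in mouse), the small heat shock protein that holds unfolded clients and stabilizes actin filaments, and lies on chromosome 5 at 135887919 to 135889563 (GRCm38, plus strand). Its level was 2.82 and 1.65 FPKM in knockout 1 and 2, against 4.56, 4.29 and 6.08 FPKM in wild-type. Both knockout values were below every wild-type value. The means were 2.24 ± 0.825 FPKM in knockout (SD, n = 2) and 4.97 ± 0.964 FPKM in wild-type (SD, n = 3). The log2 fold change was -0.90 ± 0.27 (SE), with an unadjusted limma p of 0.0134 and an adjusted p of 0.927, and it was -0.77 without wild-type 3. A marker list of mesothelial cells and fibroblasts had 6 of its 10 genes tested, all 6 with a negative fold change. The summed level of that list was 31.3 and 24.3 FPKM in the knockout libraries, against 59.9, 57.2 and 25.6 FPKM in wild-type. The mesothelial markers among them (Msln, Upk3b, Krt19 and Wt1) were near 0, at 0.0336 to 0.472 FPKM. In wild-type 3 that list stood at the level of the knockout libraries while Hspb1 had its highest value. The part of those cells in the Hspb1 difference was not tested, and in bulk RNA fewer cells of a type and less RNA per cell cannot be told apart.

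Hsp90aa1, the inducible cytosolic HSP90 (chromosome 12, 110690605 to 110702728, minus strand), had 106 and 73.6 FPKM in the knockout libraries and 134, 124 and 143 FPKM in wild-type. Knockout 2 was the lowest and no library of one group reached into the other. The log2 fold change was -0.59 ± 0.24 (SE), with an unadjusted limma p of 0.0422 and an adjusted p of 0.927. It was -0.53 without wild-type 3, but -0.32 without knockout 2. Its constitutive sister Hsp90ab1 had 731 and 585 FPKM in the knockout libraries and 589, 770 and 657 FPKM in wild-type, with overlapping groups and a log2 fold change of -0.03. The ratio of Hsp90aa1 to Hsp90ab1, both per length, was 0.146 and 0.126 in the knockout libraries and 0.227, 0.161 and 0.218 in wild-type. In every library the constitutive gene was thus several-fold more abundant. The ratios of the groups did not overlap, but they contain the Hsp90aa1 values above and add no separate support. A ratio of Hspa5 to Hspa8 overlapped, at 0.196 and 0.199 in the knockout libraries and 0.240, 0.200 and 0.157 in wild-type. All 3 HSP90 genes had a fold change below 0, but those of Hsp90ab1 and Hsp90b1 turned to 0.05 and 0.08 when libraries were rescaled to equal sums.

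The HSP70 genes of this list differed widely in level. Hspa8, the constitutive HSC70 that also serves chaperone-mediated autophagy, was the most abundant member, with 862 and 696 FPKM in the knockout libraries and 766, 999 and 1218 FPKM in wild-type. Its groups overlapped, and its log2 fold change was -0.33 ± 0.30 (SE), or -0.18 without either wild-type 3 or knockout 2. The inducible HSP70 genes were low. Hspa1a had 3.25 and 2.63 FPKM in the knockout libraries and 3.02, 4.69 and 2.75 FPKM in wild-type. Hspa1b had 4.61 and 3.25 FPKM in the knockout libraries and 2.41, 4.96 and 2.20 FPKM in wild-type. The fold changes had opposite signs (-0.17 for Hspa1a and 0.28 for Hspa1b), but the 2 genes are near copies that lie close together on chromosome 17. Of the 50-base stretches in their longest coding transcripts, 58.8% of those in Hspa1a also occur in Hspa1b, so reads can be split between them. Their sum was 7.86 and 5.88 FPKM in the knockout libraries and 5.43, 9.65 and 4.95 FPKM in wild-type, with both knockout values inside the wild-type range. Hspa4l, an HSP110 relative, had 8.80 and 8.84 FPKM in the knockout libraries and 8.90, 8.05 and 6.86 FPKM in wild-type. Hsph1, the inducible HSP110, had 13.7 and 8.99 FPKM in the knockout libraries and 15.9, 15.5 and 12.1 FPKM in wild-type, a log2 fold change of -0.34 ± 0.26 (SE). Only knockout 1 lay inside the wild-type range of Hsph1. Its fold change went with knockout 2, at -0.06 without that library, -0.62 without knockout 1 and -0.46 without wild-type 3.

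Among the J-domain partners of cytosolic HSP70, Dnajb1 (HSP40, the classical heat-induced partner) was tight within groups. It had 18.1 and 17.7 FPKM in the knockout libraries, against 20.41, 20.72 and 19.995 FPKM in wild-type, so the groups did not overlap although the log2 fold change was only -0.18 ± 0.19 (SE). Dnaja1, which supports folding of newly made proteins, had 12.7 and 14.2 FPKM in the knockout libraries and 13.8, 14.0 and 7.92 FPKM in wild-type. Dnajb4 had 6.93 and 7.48 FPKM in the knockout libraries and 9.81, 9.80 and 5.51 FPKM in wild-type. For both genes wild-type 3 was the lowest library, and the fold change without it was -0.04 for Dnaja1 (0.20 with it) and -0.40 for Dnajb4 (-0.15 with it). Bag3, the co-chaperone that steers clients to selective autophagy and is itself an HSF1 target, had 28.9 and 28.7 FPKM in the knockout libraries and 27.5, 30.3 and 42.4 FPKM in wild-type. The transcription factor gene Hsf1 had 15.7 and 12.9 FPKM in the knockout libraries and 12.5, 16.5 and 17.0 FPKM in wild-type, and its relative Hsf2 had 4.16 and 4.82 FPKM in the knockout libraries and 4.58, 5.12 and 1.07 FPKM in wild-type. The groups overlapped for Bag3, Hsf1 and Hsf2. Hsf1 and Hsf2 fall outside the rule for named members and are given because they regulate the others.

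The knockout libraries were not alike for these genes. Knockout 1 stood above knockout 2 for 8 of the 11 tested genes of the cytosolic and nuclear list and for all 3 HSP90 genes, against 50.2% of all tested genes. Over all members this was 31 of 61, and among the endoplasmic reticulum members 2 of 8. The lean was not particular to these genes. It was seen in 19 of 24 folding partners of the endoplasmic reticulum and 6 of 8 macrophage genes, but in 5 of 13 CCT and prefoldin genes and 6 of 15 mitochondrial partners. The immediate early genes, which rise during handling of macrophages, had summed levels of 621 and 570 FPKM in the knockout libraries and 637, 778 and 545 FPKM in wild-type. Of the 11 tested among those 12 genes, 3 had a positive and 8 a negative fold change, and none was called. Knockout 1 stood above knockout 2 for 8 of these 11 as well. Their part in the values of the inducible chaperones was not tested.

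**Figure D3:**
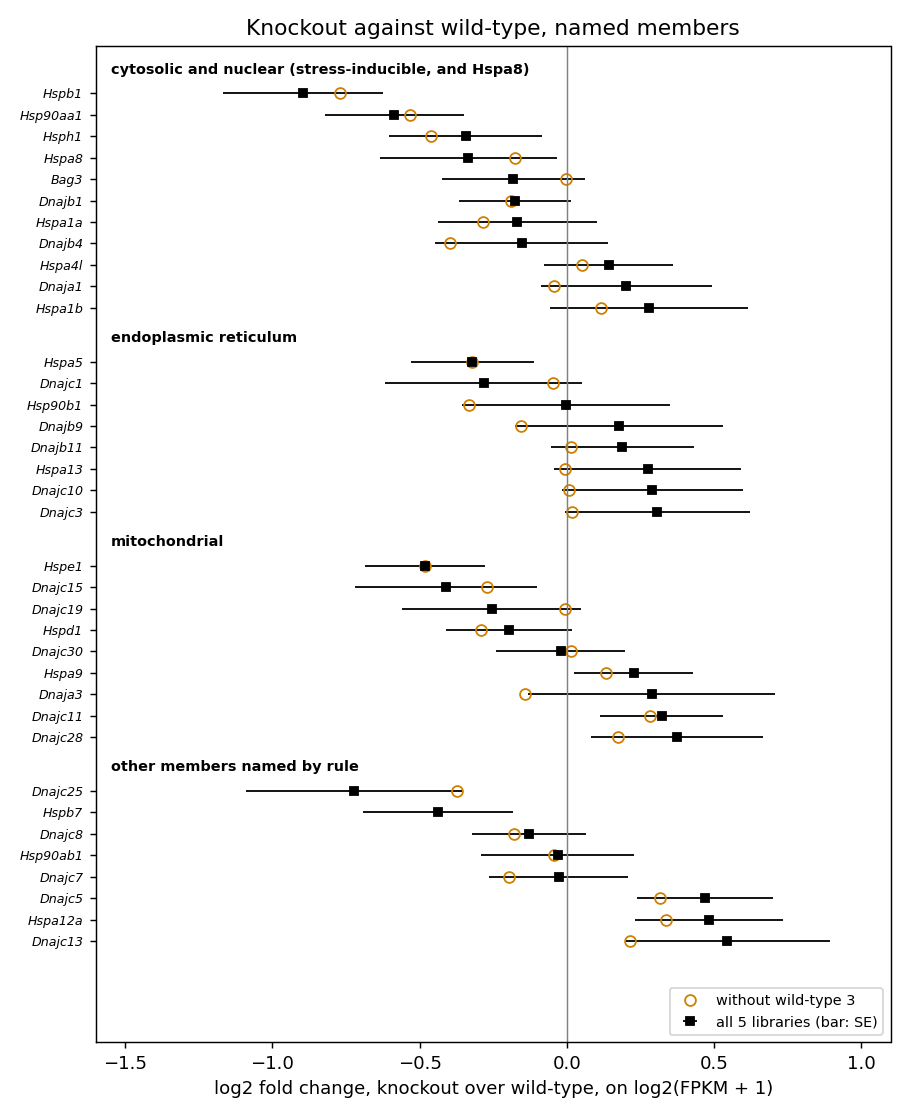
Log2 fold change of knockout over wild-type on log2(FPKM + 1) for the 36 members named by rule, by compartment, with all 5 libraries (squares, bars of 1 SE) and without wild-type 3 (open circles; Hspb7 falls under the filter there). Of the cytosolic and nuclear genes 8 of 11 squares lie left of 0, and the squares of the endoplasmic reticulum and mitochondrial genes lie on both sides, several of them close to 0 once wild-type 3 is left out.

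Chaperones of the endoplasmic reticulum lay on both sides, and the leading one was lower in both knockout libraries. All 8 genes of the list were tested, 5 with a positive and 3 with a negative fold change, and their median relative to all tested genes was 0.08 with all libraries and -0.04 without wild-type 3. Leaving out the other libraries 1 at a time gave 0.041 (without knockout 2) to 0.18 (without wild-type 1). The summed level was 473 and 431 FPKM in the knockout libraries and 546, 522 and 379 FPKM in wild-type. Hspa5, which encodes BiP, the HSP70 of the endoplasmic reticulum and its sensor of unfolded proteins (chromosome 2, 34771970 to 34777547, plus strand), had 169 and 139 FPKM in the knockout libraries. In wild-type it had 184, 200 and 191 FPKM. All 3 wild-type values were above both knockout values, for a log2 fold change of -0.32 ± 0.21 (SE, limma adjusted p = 0.927) that was -0.32 without wild-type 3 as well. It was -0.18 without knockout 2 and -0.46 without knockout 1.

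In this compartment 3 members carry the endoplasmic reticulum stress element in the RefSeq promoter (250 bases before to 50 after the start, GRCm38.p6). They are shown because they are the genes through which the unfolded protein response is usually read. The element was searched as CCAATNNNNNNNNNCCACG and its reverse complement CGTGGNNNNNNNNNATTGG. Its capitals stand in the lines that follow, 5′ to 3′ on the gene's strand, with flanks of 5 bases. The Hspa5 stretch is chr2:34772020-34772048 (plus strand), which GENCODE places in the first exon of a longer Hspa5 transcript. That of Dnajc3 is chr14:118937822-118937850 (plus strand), and Hsp90b1 has 2, at chr10:86705633-86705661 and chr10:86705528-86705556 (minus strand).

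Hspa5: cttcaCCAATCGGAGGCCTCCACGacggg

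Dnajc3: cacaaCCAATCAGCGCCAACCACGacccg

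Hsp90b1 distal: caagcCCAATCGCAAGGAGCCACGcttcg

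Hsp90b1 proximal: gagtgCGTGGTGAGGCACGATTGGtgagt

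Of the 75 members 60 had a promoter in the RefSeq table, and 3 of the 60 (5.0%) held this element, against 0.137% of all 27025 genes of that table. The element was chosen as the one known to induce such genes, so this share is a description and not a test. The match starts 65 bases before the start of Hspa5, 105 before that of Dnajc3, and 212 and 107 before that of Hsp90b1. A match of letters is a description and not a measured binding site. The 3 genes did not share a direction. Hsp90b1, the GRP94 paralog of HSP90, had 174 and 151 FPKM in the knockout libraries and 227, 182 and 102 FPKM in wild-type, so that wild-type 3 alone was below the knockout values. Its log2 fold change was -0.0011 ± 0.35 (SE) with all libraries and -0.33 without wild-type 3. Dnajc3, the J protein p58IPK that binds clients for BiP, had 16.9 and 17.6 FPKM in the knockout libraries and 17.4, 16.7 and 8.90 FPKM in wild-type.

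The other J proteins of the endoplasmic reticulum, except Dnajb9, were close to even between the groups once wild-type 3 was set aside. For Dnajb9 both knockout values then lay below both wild-type values. Dnajb11 (ERdj3, which brings BiP to nascent chains) had 44.8 and 48.9 FPKM in the knockout libraries and 42.9, 49.9 and 32.0 FPKM in wild-type. Dnajc10 (ERdj5, a disulfide reductase of degradation substrates) had 45.8 and 50.4 FPKM in the knockout libraries and 48.8, 46.9 and 26.0 FPKM in wild-type. Dnajb9 (ERdj4, a repressor of the stress sensor IRE1) had 10.7 and 10.9 FPKM in the knockout libraries and 13.44, 10.99 and 5.59 FPKM in wild-type. In each of these genes, and in Hspa13, Hsp90b1 and Dnajc3, wild-type 3 was the lowest library. Hspa13, an HSP70 relative of microsomes, had 7.84 and 8.63 FPKM in the knockout libraries and 8.14, 8.37 and 4.17 FPKM in wild-type. Dnajc1 (ERdj1, a membrane J protein) had wild-type 3 as its highest library instead, with 4.93 and 5.39 FPKM in the knockout libraries and 4.05, 7.001 and 9.38 FPKM in wild-type. Log2 fold changes without wild-type 3 were 0.02 for Dnajb11, 0.01 for Dnajc10, -0.16 for Dnajb9, 0.02 for Dnajc3, -0.01 for Hspa13 and -0.05 for Dnajc1.

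In mitochondria the chaperonin pair was lower and the HSP70 was higher in mean, with no call. All 9 genes were tested, 4 positive and 5 negative, and the summed level was 207 and 212 FPKM in the knockout libraries and 234, 214 and 216 FPKM in wild-type. The median relative to all tested genes was -0.13, but it rested on single libraries, at 0.0039 without knockout 2, -0.02 without wild-type 3 and -0.25 without wild-type 2. Hspe1, which encodes HSP10, the lid of the folding chamber, had 24.9 and 26.7 FPKM in the knockout libraries, against 41.0, 32.5 and 36.3 FPKM in wild-type. The groups did not overlap, and the log2 fold change of -0.48 ± 0.20 (SE) had an unadjusted limma p of 0.0509 and an adjusted p of 0.927, and was -0.48 without wild-type 3. Hspd1, which encodes the barrel protein HSP60, had 26.1 and 24.1 FPKM in the knockout libraries and 28.3, 33.8 and 25.2 FPKM in wild-type. One knockout library of Hspd1 lay inside the wild-type range, for a log2 fold change of -0.20 ± 0.21 (SE), or -0.09 without wild-type 2. The ratio of Hspe1 to Hspd1 was 0.957 and 1.11 in the knockout libraries and 1.45, 0.960 and 1.44 in wild-type, with overlap through wild-type 2.

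The 2 chaperonin genes are divergent neighbours on chromosome 1, Hspd1 at 55077835 to 55088243 on the minus strand and Hspe1 at 55088132 to 55091307 on the plus strand. Their annotated spans overlap by 112 bases, so without strand information reads there cannot be assigned to 1 of the 2 genes. Between their RefSeq starts lies a shared heat shock element, at chr1:55088054-55088081, shown because it falls in the promoter window of both genes of the pair, on opposite strands. The element was searched as GAANNTTCNNGAA and its reverse complement TTCNNGAANNTTC. Each strand holds 2 overlapping matches, in capitals here with flanks of 5 bases, 5′ to 3′ on the strand of the named gene.

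Hspe1: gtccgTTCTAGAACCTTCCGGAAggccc

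Hspd1: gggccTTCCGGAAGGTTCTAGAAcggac

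The matches start 89 and 84 bases before the RefSeq start of Hspe1, and 144 and 139 before that of Hspd1; GENCODE places the stretch in the first exon of a longer Hspd1 transcript. The strict 3-unit form of the element was found in 4 of the 60 members with a promoter (6.67%: Hspd1, Hspe1, Hsph1 and Dnajb6), against 0.662% of all 27025 genes with one. This element too was chosen as one known to induce heat shock genes, so the share is no test. In Hsph1 it lay after the start. Of these 4 genes Hspe1, Hspd1 and Hsph1 had negative fold changes, while Dnajb6, which blocks aggregation of polyglutamine proteins, had 12.8 and 12.7 FPKM in the knockout libraries and 12.1, 12.5 and 12.4 FPKM in wild-type (log2 fold change 0.04). Absence of these letters from the other windows says nothing about the regulation of those genes.

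Hspa9, mortalin, the HSP70 of the mitochondrial matrix and of the import motor, had 54.9 and 57.6 FPKM in the knockout libraries, against 49.8, 52.6 and 41.9 FPKM in wild-type. Both knockout values were above all wild-type values, and the log2 fold change was 0.23 ± 0.20 (SE), or 0.13 without wild-type 3. Dnajc11, a J protein of the mitochondrial membrane complexes that shape cristae, had 30.5 and 30.2 FPKM in the knockout libraries and 21.8, 28.2 and 22.7 FPKM in wild-type. Its groups did not overlap either, with a log2 fold change of 0.32 ± 0.21 (SE), and 0.28 without wild-type 3. Dnaja3 (Tid1, the matrix J protein) had 11.8 and 11.8 FPKM in the knockout libraries and 13.7, 12.5 and 4.75 FPKM in wild-type. The low wild-type 3 value sets the sign for Dnaja3, whose log2 fold change was 0.29 with that library and -0.14 without it.

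The remaining mitochondrial J proteins overlapped between the groups. Dnajc15, an inner-membrane J protein that restrains respiration, had 24.8 and 27.8 FPKM in the knockout libraries and 43.3, 23.4 and 43.0 FPKM in wild-type, where wild-type 2 stood far below the other two. Dnajc19, a subunit of the import motor, had 10.4 and 14.0 FPKM in the knockout libraries and 11.8, 12.5 and 21.0 FPKM in wild-type. A pseudogene of it, Dnajc19-ps, was listed at 6.56 and 12.2 FPKM in the knockout libraries and 7.42, 8.28 and 8.95 FPKM in wild-type, so reads can be split between the copies. The same holds for Hspa9, Hspe1 and Hspb1. Hspa9-ps1 had 6.06 and 6.97 FPKM in the knockout libraries and 4.59, 6.29 and 3.15 FPKM in wild-type. Hspe1-ps2 had 1.94 and 1.45 FPKM against 0.883, 1.51 and 0.460 FPKM. Hsp25-ps1, a copy by name of Hspb1, had 0.856 and 0.723 FPKM against 0.510, 0.710 and 0.909 FPKM. Dnajc28 had 3.02 and 2.60 FPKM in the knockout libraries and 2.92, 1.90 and 1.23 FPKM in wild-type. Dnajc30, which associates with ATP synthase, had 20.9 and 17.3 FPKM in the knockout libraries and 21.2, 16.7 and 20.3 FPKM in wild-type.

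Outside these lists Dnajc5, Dnajc13 and Hspa12a, named for their small unadjusted p, had higher means in the knockout. Dnajc5, the cysteine string protein of secretory vesicles (chromosome 2, 181520485 to 181555133, plus strand), had 36.6 and 39.5 FPKM in the knockout libraries, against 28.7, 32.1 and 21.8 FPKM in wild-type. The groups did not overlap, for a log2 fold change of 0.47 ± 0.23 (SE) with an unadjusted limma p of 0.0832 and an adjusted p of 0.927, and 0.32 without wild-type 3. Dnajc13 (RME-8, which remodels the endosome coat) had 12.2 and 12.3 FPKM in the knockout libraries and 10.5, 10.3 and 4.72 FPKM in wild-type. Its log2 fold change of 0.55 ± 0.35 (SE) was the most positive of all members and became 0.21 without wild-type 3. Hspa12a, a distant HSP70 relative, had 1.72 and 2.26 FPKM in the knockout libraries and 1.28, 1.44 and 0.736 FPKM in wild-type, a log2 fold change of 0.48 ± 0.25 (SE), or 0.34 without wild-type 3.

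On the lower side Dnajc25 had 4.97 and 5.56 FPKM in the knockout libraries and 7.78, 6.49 and 15.7 FPKM in wild-type. Its groups did not overlap, and its log2 fold change went with wild-type 3, at -0.72 ± 0.37 (SE) with that library and -0.37 without it. Hspb7, a small heat shock protein best known from heart, was near the floor, with 0.690 and 0.331 FPKM in the knockout libraries and 0.638, 1.29 and 1.23 FPKM in wild-type. The abundant Dnajc7 (TPR2, which passes clients between HSP70 and HSP90) had 62.3 and 59.9 FPKM in the knockout libraries and 71.6, 68.8 and 49.2 FPKM in wild-type. Dnajc8, a J protein of the spliceosome, had 33.3 and 36.0 FPKM in the knockout libraries and 40.0, 38.8 and 35.3 FPKM in wild-type. The groups of Dnajc7 and Dnajc8 overlapped. The span of Dnajc7 overlaps the opposite-strand genes Nkiras2 and Cnp, which averaged 51.5 and 16.7 FPKM. Where counting ignores strand, reads in the overlap cannot be told apart. Expressed opposite-strand genes also overlap other members, among them Dnaja1 (Smu1, 13.6 FPKM), Dnaja3 (Coro7, 34.2 FPKM), Dnajc1 (Mllt10, 18.0 FPKM) and Dnajc19 (Fxr1, 17.3 FPKM). Further such members are Dnaja4 (Wdr61, 15.8 FPKM), Dnajc14 (Ormdl2, 7.57 FPKM), Dnajc17 (Zfyve19, 20.5 FPKM) and the weakly expressed Hspb6 (Lin37, 19.1 FPKM).

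By family the signs ran as follows, beside 63.9% positive of all tested genes. Of the 12 tested HSP70 and HSP110 genes 8 were positive and 4 negative, of the 9 DnaJ B genes 6 and 3, and of the 24 DnaJ C genes 12 and 12. The 4 DnaJ A genes had 3 positive and 1 negative. Of the 4 tested small heat shock protein genes Hspb1, Hspb7 and Hspb11 were negative and Hspb6 was positive, where Hspb7 had come in through wild-type 2 and 3 alone. Hspb11 is by function an intraflagellar transport gene, and Hspb6 (HSP20) had 4.34 and 3.57 FPKM in the knockout libraries and 3.35, 3.42 and 3.30 FPKM in wild-type, a log2 fold change of 0.18. The medians relative to all tested genes were 0.08 for the HSP70 and HSP110 family, 0.08 for DnaJ A, -0.06 for DnaJ B and -0.08 for DnaJ C. Without wild-type 3 these were 0.04, -0.11, -0.12 and -0.02 in the same order.

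Wild-type 3 bore on many of these values. It was the lowest of the 5 libraries for 32 of the 61 tested members and for 54.2% of all tested genes, and the highest for 13 members. Transcript length moved with this. Across the 61 members, Spearman's rho between the length of the longest coding transcript (608 to 9479 bases in GENCODE) and the difference of wild-type 3 from the mean of wild-type 1 and 2 was -0.33, as it was across 11533 of all tested genes (-0.33). Among all genes, those without a coding transcript entered with their longest transcript of any kind. Between length and the log2 fold change rho was 0.43 for the members and 0.32 for all genes. Without wild-type 3 it was 0.39 for the members and 0.15 for all genes. These are descriptions across genes, which share libraries and are not independent.

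Split by length, the 21 shortest members (up to 2513 bases) had a median log2 fold change of -0.15, the 20 in the middle 0.03 and the 20 longest (from 3535 bases) 0.28. Without wild-type 3 the medians were -0.18, -0.04 and 0.03. Hspe1 (774 bases) and Hspb1 (930 bases) are among the 3 shortest members, and Dnajc5 (6578 bases) and Dnajc13 (8012 bases) are among the long ones. Hsp90aa1, with 3281 bases, lies in the middle group. The part of transcript length in the differences of single members was not tested.

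**Figure D4:**
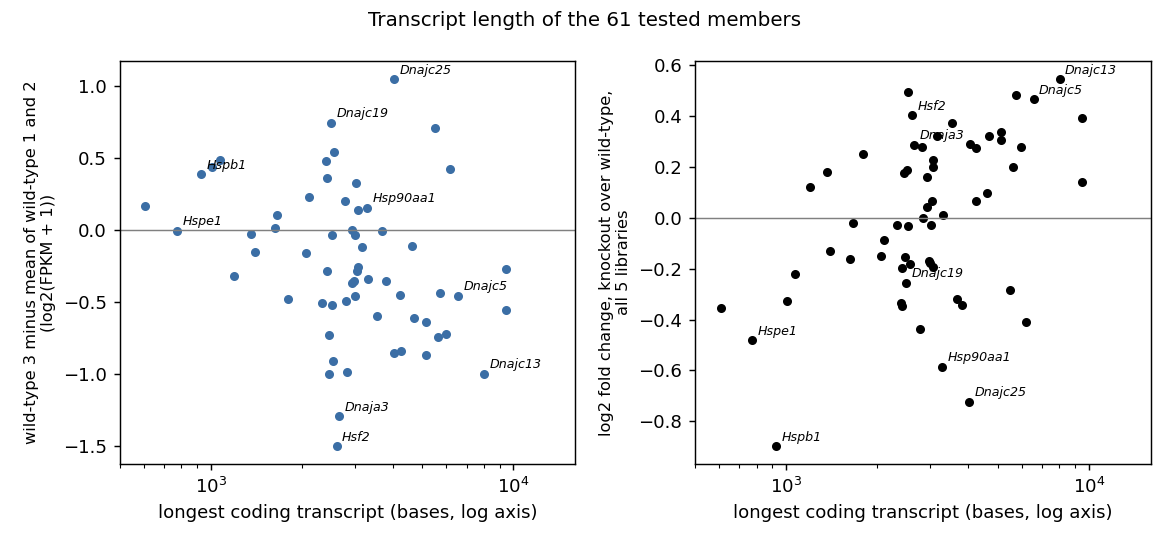
Longest coding transcript in bases (log axis) of the 61 tested members against the log2(FPKM + 1) of wild-type 3 minus the mean of wild-type 1 and 2 (left), and against the log2 fold change of knockout over wild-type with all 5 libraries (right). Long transcripts lie mostly below 0 on the left (rho -0.33) and mostly above 0 on the right (rho 0.43), where the short Hspb1 and Hspe1 are among the lowest points.

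The partner genes of these chaperones gave no call either. The genes named from each list have its smallest unadjusted p, so the choice favoured a separation of their groups. Of 26 cofactors of HSP70 and HSP90, all tested, 9 were positive and 17 negative, and the median relative to all tested genes was -0.25, or -0.15 without wild-type 3. Stip1 (HOP, the adaptor that joins HSP70 to HSP90) had 35.0 and 30.0 FPKM in the knockout libraries, against 42.6, 41.6 and 53.8 FPKM in wild-type. Its log2 fold change was -0.48 ± 0.22 (SE), and its groups did not overlap. Of the 26 cofactors 3 were apart on the higher and 9 on the lower side, where 13.9% and 6.95% of all tested genes stood. Hspbp1, a nucleotide exchange factor of HSP70, had 17.3 and 15.5 FPKM in the knockout libraries and 22.0, 17.8 and 33.6 FPKM in wild-type (log2 fold change -0.50, and -0.26 without wild-type 3). The cytosolic chaperonin CCT with prefoldin had 13 of 14 genes tested, 4 positive and 9 negative, at a relative median of -0.24 that was -0.09 without wild-type 3. Its named members were the prefoldin subunits Pfdn5, with 184 and 208 FPKM in the knockout libraries and 282, 206 and 364 FPKM in wild-type, and Pfdn4, with 17.0 and 19.6 FPKM in the knockout libraries and 15.7, 14.5 and 7.55 FPKM in wild-type. Of these 13 tested genes 1 was apart on the higher and 4 on the lower side.

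Folding genes of the endoplasmic reticulum had 24 of 25 genes tested, 9 positive and 15 negative, with a relative median of -0.19 both with and without wild-type 3. Creld2, a stress-induced protein of that compartment, had 18.1 and 13.2 FPKM in the knockout libraries, against 26.4, 25.5 and 32.0 FPKM in wild-type. Its log2 fold change was -0.81 ± 0.23 (SE), with an unadjusted limma p of 0.0106 and an adjusted p of 0.927. Manf, a secreted protein that binds BiP, had 62.9 and 58.1 FPKM in the knockout libraries and 91.8, 75.0 and 79.9 FPKM in wild-type, a log2 fold change of -0.43 ± 0.20 (SE). Both genes had all wild-type libraries above both knockout libraries, and their values held without wild-type 3 (-0.71 and -0.45). They were named for their small unadjusted p, which favours such a separation, so it adds no support to Hspa5. Of the 24 tested genes 1 was apart on the higher and 3 on the lower side, where 13.9% and 6.95% of all tested genes stood. Besides Creld2 and Manf, groups did not overlap for Xbp1 and Atf6, transcription factors of the unfolded protein response, named after their values were seen. Xbp1 had 69.6 and 61.1 FPKM in the knockout libraries and 92.7, 74.1 and 76.7 FPKM in wild-type. Atf6 had 11.78 and 11.96 FPKM in the knockout libraries and 9.80, 10.2 and 6.30 FPKM in wild-type, the opposite direction.

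Mitochondrial folding and import genes were even, with 15 tested, 8 positive and 7 negative, and a relative median of -0.05. The channel subunit gene Timm23 had 16.4 and 22.4 FPKM in the knockout libraries and 23.1, 24.2 and 41.0 FPKM in wild-type. The protease gene Yme1l1 had 20.3 and 21.5 FPKM in the knockout libraries and 18.4, 16.8 and 8.48 FPKM in wild-type. Both had groups that did not overlap, in opposite directions, and wild-type 3 held the extreme wild-type value of each. Of the 15 genes 1 was apart on the higher and 2 on the lower side.

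Markers of other peritoneal cells varied between libraries. Mast cell genes summed to 34.0 and 18.2 FPKM in the knockout libraries and 16.3, 22.1 and 176 FPKM in wild-type. B cell genes summed to 16.2 and 16.3 FPKM in the knockout libraries and 15.7, 10.8 and 19.5 FPKM in wild-type. Neutrophil genes, nearly all of it S100a8 with Ly6g listed at 0 in every library, summed to 44.3 and 58.6 FPKM in the knockout libraries and 65.1, 23.2 and 73.5 FPKM in wild-type. T and NK cell genes summed to under 1 FPKM in each library, with Nkg7 listed at 0. The 8 macrophage genes found summed to 2914 and 2494 FPKM in the knockout libraries and 2645, 2550 and 3534 FPKM in wild-type. The part of these cells in the chaperone values was not tested.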

How the data were processed

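Bulk RNA was sequenced in 2 knockout and 3 wild-type libraries. Per the labels' protocols, mRNA purified from 1 µg of total RNA went into Ion Torrent whole-transcriptome libraries, and Torrent Suite 4.4 with its Whole Transcriptome Analysis Plugin 4.2-r7 processed the reads. The submitters' processing notes name TopHat2, Bowtie2, Cufflinks and the mm10 build, and the gene annotation is not given in the sources used here. The deposited values are FPKM, computed by the authors with Cufflinks, per the labels. Sequencing depth could not be recovered from these values, since they do not step in units of 1 read. The authors also deposited 17 derived columns (ratios, logarithms, means), which were set aside.

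The column of wild-type 3 followed a sort that counts hyphens, so that 2144 of 38757 lines held another gene's value. In the 722 expressed lines concerned, Pearson's r with the mean of the other libraries was 0.171 as deposited and 0.916 after realignment, which was used. None of the 76 lines of the members was displaced. Lines with a number in place of a name (27) or with names that differ only in case (50) were left out, and lines of 165 repeated symbols were summed.

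Genes with at least 1 FPKM in at least 2 libraries (12214) were compared on log2(FPKM + 1) with limma 3.58.1 in R 4.3.3, with all 5 libraries, the genotype term alone, a trended prior variance and p-values adjusted by Benjamini-Hochberg over all tested genes at 0.05. With 3 against 2 libraries an exact two-sided permutation test of 1 gene, on the absolute difference of means, cannot go below 0.1, so none is given. The members, gene lists and tests were chosen with earlier results of these data known. The rule for members given library by library took the 10 most abundant, the 10 with the smallest unadjusted p and the tested members of the 3 compartments, and members named outside it are marked as such. Of each partner list, the 2 genes with the smallest unadjusted p are named.

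Locations and transcript lengths are from GENCODE vM21 (GRCm38), promoter sequences from RefSeq (GRCm38.p6). Alternatives were a pseudocount of 0.1, no filter, a filter at 5 FPKM, rescaling to equal sums, median-of-ratios scaling, limma array weights, a replicate block, the order as deposited and each library left out.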

Additional observations from a re-analysis of the deposited data

How the results depend on the processing

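No member was called in either direction under any of the 13 alternatives. The lowest adjusted p of a named member was 0.309, for Hspb1 with limma array weights, which gave wild-type 3 a weight of 0.128. At an unadjusted p under 0.05 the weights gave 9 members (14.8%, against 8.97% of all genes), where 2 are reported.

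Over all genes, the 5 higher calls became 1 with a filter at 5 FPKM, 12 with array weights, 1 with no filter, 2 in the order as deposited and 3 with a pseudocount of 0.1. The 2 lower calls became 1, 9, 0, 1 and 2 in the same order. Leaving out single libraries gave 0 to 7 higher and 0 to 7 lower calls, with 0 in both directions without either knockout library. The members' median relative to all genes (-0.10) was -0.037 with array weights, -0.016 with no filter, and -0.16 to -0.048 with single libraries left out. Of 460 fold changes of the 36 named members under alternatives, 429 kept their sign.

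The 31 that turned belong to 11 members with reported values of -0.28 to 0.29. With array weights Bag3 was 0.011, Dnaja1 -0.011, Dnaja3 -0.13, Dnajb9 -0.19, Dnajc1 0.091 and Hsp90ab1 0.054. Rescaled to equal sums, Dnajc30 was 0.058, Dnajc7 0.053, Hsp90ab1 0.051 and Hsp90b1 0.080. With single libraries left out Dnaja1 ran from -0.044 to 0.33, Dnaja3 from -0.14 to 0.53, Dnajb9 from -0.16 to 0.41, Dnajc30 from -0.15 to 0.11, Dnajc7 from -0.20 to 0.070, Hsp90ab1 from -0.19 to 0.13, Hsp90b1 from -0.33 to 0.24, Hspa13 from -0.0050 to 0.42 and Hspa1a from -0.28 to 0.016. The causes were not tested.

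The replicate block uses the numbers that 2 knockout and 2 wild-type libraries share, which the labels do not describe as pairs. Deviations from the group means correlated at -0.05 for number 1 and -0.01 for number 2. With 2 knockout libraries these deviations mirror each other, so the correlations cannot decide whether libraries of the same number are paired. The block gave 3 higher and 1 lower calls over all genes, and turned Dnaja1 (-0.044), Dnaja3 (-0.14), Dnajb9 (-0.16), Dnajc30 (0.014) and Hspa13 (-0.0050).

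With 5 libraries the SE of a named member's log2 fold change was 0.19 to 0.42, and a difference within that error was not detectable. Differences well beyond it were not called either, such as -0.90 for Hspb1 and -1.09 for Nrp1 (limma adjusted p = 0.927 for both). The lack of calls therefore does not show that the groups are alike.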
